A study of Homo sapiens with 6 samples.

Results

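The genes described here defend cells against hydrogen peroxide, lipid peroxides and electrophiles with glutathione and thioredoxin. They are 39 genes chosen by symbol from textbook knowledge of the pathway, with earlier results of these data known. Of the 39, 38 were found in the table of 22258 gene symbols, and all 38 passed the filter on low values. GSTM3 is not analysed here. RNA levels come from strand-specific libraries of total RNA, made from 6 samples of SW480, an established human colon cancer cell line. The knockdown group holds 3 samples with the genotype ALDH1B1 KD, and the control group holds 3 samples named SCR with the genotype WT. Both groups were untreated, and each numbers its replicates 4, 5 and 6. The sources used here do not say how the knockdown was made, whether it is 1 clone, or whether each replicate was its own culture. The p-values therefore measure the spread between these samples only, and it may be technical.

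Cells make glutathione from glutamate, cysteine and glycine, and use it through glutathione peroxidases and glutathione transferases to reduce peroxides and to tag reactive compounds for export. Peroxiredoxins reduce peroxides with electrons from thioredoxin. Glutathione reductase and thioredoxin reductase recharge both systems with NADPH, much of it from the pentose phosphate pathway. The transcription factor NRF2 (gene NFE2L2) drives many of these genes through antioxidant response elements, and KEAP1 holds NRF2 down by presenting it to a CUL3 ubiquitin ligase. ALDH1B1, the knocked-down gene, is a mitochondrial aldehyde dehydrogenase that clears acetaldehyde and lipid aldehydes, some of which are also substrates of glutathione transferases.

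In the ALDH1B1 knockdown, 13 of the 38 genes fell and 5 rose. The enzymes that make and recharge glutathione (GCLC, GCLM, GSR), 4 of 6 peroxiredoxins (PRDX1, PRDX3, PRDX4, PRDX6), cytosolic thioredoxin reductase TXNRD1 and mitochondrial thioredoxin TXN2 were lower, as were KEAP1, GPX8, GSTA4 and MGST1. Higher were GPX2, GSTK1, GSTM2, TKT and SOD1. Most changes were small, since 11 of the 13 falls were of at most 0.5 on the log2 scale and the falls left 59.8% to 83.3% of the control level. NFE2L2, the gene for NRF2 itself, did not pass the test. The word rose or fell is used for an adjusted p under 0.05 (limma, Benjamini-Hochberg over all 15496 genes tested), and RPM is the number of reads per 1000000 reads of the sample.

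These counts stand beside a broad change in all genes. Of the 15496 genes tested, 41.8% changed, against 47.4% of the 38, which is near that background. By direction, 22.6% of all genes rose and 19.2% fell, against 13.2% and 34.2% of the 38. The genes were chosen with earlier results of these data known, so this split may partly reflect the choice. The median log2 fold change was -0.049 over the 38 genes and 0.00067 over all genes tested. The median size of the change was 0.32 among the 18 changed genes and 0.46 among all changed genes. The samples of the groups did not overlap for 23 of the 38 (60.5%), against 51.0% of all genes tested, and all 18 changed genes were among the 23. The other 5 were SRXN1, NQO1 and GSTO1, lower, and MGST2 and MGST3, higher. The split of rises and falls moved with the scaling: 9 of the 38 rose and 14 fell when samples were scaled to their totals over nuclear genes, leaving out the mitochondrial genome and small structural RNAs, and their median was then 0.0033, while that of all genes was 0.053. Under that scaling 29.3% of all genes rose and 18.6% fell.

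**Figure D1:**
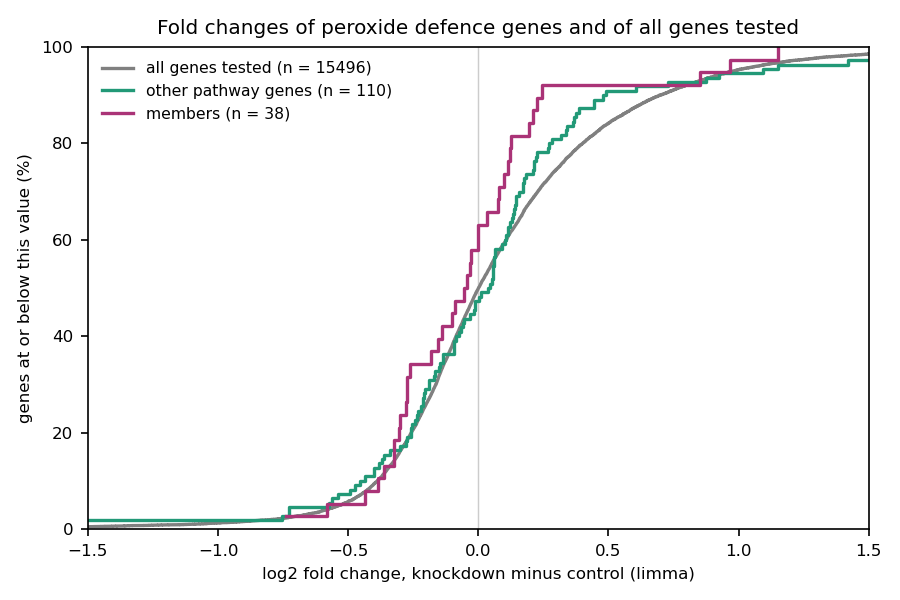
Cumulative share of genes (vertical axis, percent) by log2 fold change, knockdown minus control (horizontal axis), for the 38 peroxide defence genes, 110 other genes of the pathway and all 15496 genes tested, drawn between -1.5 and 1.5. The line of the 38 genes lies to the left of that of all genes between about 0 and 0.5, and also at the medians, -0.049 and 0.00067. Values below 0 are held by 24 of the 38 genes and by 7737 of all 15496. Few of the 38 have large changes.

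ALDH1B1 was lower in every knockdown sample, at 57.6% of the control mean. It had 34.1, 39.6 and 36.7 RPM in the control and 20.0, 20.4 and 23.2 RPM in the knockdown, each given in the order of replicates 4, 5 and 6 as in all lists of values here, which is a difference of -0.80 on the log2 scale (SE 0.0926, adjusted p = 2.37e-07). A two-sided exact permutation test of these values gave p = 0.1, which is the lowest value possible with 3 samples a group. Depth was about 20330000 to 28550000 reads per sample. Control replicate 6 had the lowest share of its reads in listed genes, 65.1% against at most 71.1%, and without it 3 of the 38 genes rose and 13 fell. Without it the balance over all genes also turned, with 19.7% risen and 24.1% fallen. Of 12 colon epithelial markers, 10 were found, and their summed level was 5489 to 5752 RPM in the control and 5881 to 6199 RPM in the knockdown, nearly all of it keratins. KRT20 and LGR5 were close to 0. Single markers differed more than the sum: EPCAM went from 110.4 ± 7.91 to 206 ± 3.21 RPM, CDH1 from 13.1 ± 2.92 to 51.0 ± 4.97 RPM, VIL1 from 5.82 ± 0.587 to 21.7 ± 1.25 RPM and CDX2 from 54.3 ± 2.64 to 32.1 ± 3.39 RPM (SD, n = 3 each), and their part in the results was not tested. Fibroblast markers summed to 4.18 to 7.03 RPM (3 of 9 found), and leukocyte markers to 1.43 to 3.01 RPM (4 of 8 found), over all 6 samples. Blood markers (3 of 4 found) summed to 1.71 to 2.18 RPM in the control and 0.841 to 5.89 RPM in the knockdown, where replicate 4 stood apart with 2.37 RPM of HBB and 1.35 RPM of HBA2.

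**Figure D2:**
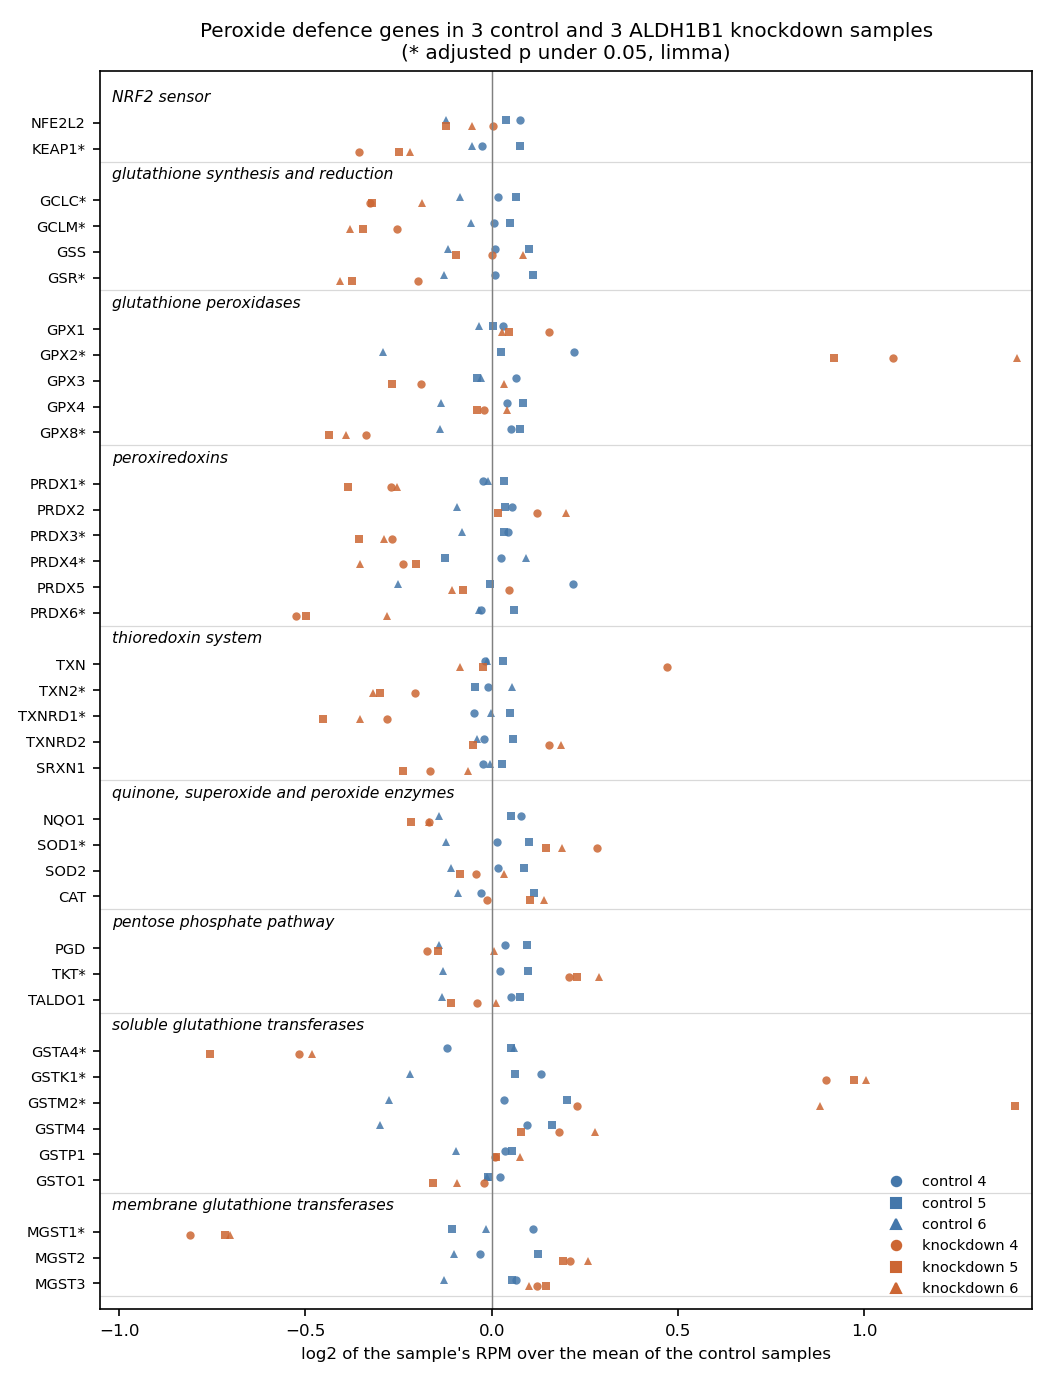
Each row is a gene, and each point is a sample, placed by the log2 of its RPM over the mean of the 3 control samples; colours mark the group, shapes the replicate number, and a star after the name an adjusted p under 0.05. Knockdown points lie left of all control points for the 13 genes that fell and right of them for the 5 that rose, with GPX2, GSTK1 and GSTM2 farthest to the right and MGST1 and GSTA4 farthest to the left.

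The sensor of the pathway changed in its repressor and not measurably in its activator. NFE2L2 (chromosome 2, 178092323 to 178257426 by the positions in the table, which are of an unnamed build and differ from the GRCh38 positions of the promoters) had 83.0, 80.9 and 72.4 RPM in the control and 79.0, 72.3 and 75.9 RPM in the knockdown. The groups overlapped, with a difference of -0.055 on the log2 scale (SE 0.0787, adjusted p = 0.604) and a 95% interval of -0.22 to 0.11. KEAP1 (chromosome 19, 10596796 to 10614418) had 70.1, 75.2 and 68.8 RPM in the control and 55.8, 60.1 and 61.3 RPM in the knockdown. All 3 knockdown samples lay below all 3 control samples, at 82.7% of the control mean, a difference of -0.27 on the log2 scale (SE 0.0782, adjusted p = 0.00655). A level of mRNA is not a level of NRF2 protein, which KEAP1 controls by degradation. In bulk RNA, a lower level in each cell and fewer cells with the transcript cannot be told apart.

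Of 10 other partners and regulators of NRF2, 4 rose (40%) and 3 fell (30%), against 22.6% and 19.2% of all genes tested. Their median log2 fold change was 0.093. SQSTM1, the autophagy receptor p62 that binds KEAP1 and is itself an NRF2 target, fell from 446 ± 21.5 to 299 ± 12.9 RPM (SD, n = 3 each), a difference of -0.57 on the log2 scale (SE 0.0739, adjusted p = 1.05e-06) by limma. CUL3 and RBX1, the scaffold and the RING subunit of the ligase that KEAP1 serves, fell by 0.30 and 0.24 on the log2 scale. Both components of the ligase and its adaptor KEAP1 were thus lower together. The small MAF proteins MAFK and MAFG, which pair with NRF2 or with its competitor BACH1 on DNA, rose by 0.44 and 0.22, and BACH1 rose by 0.28. NFE2L3, a relative of NRF2, rose by 0.32. Near BACH1, 22 of 43 genes within 5 Mb also rose, with a median log2 fold change of 0.23. Near MAFG, MAFK and NFE2L3, 45 of 108, 28 of 69 and 22 of 70 rose, with medians of 0.22, 0.20 and 0.16. The part of position in these rises was not tested.

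The antioxidant response element can be sought in promoters by its core letters, TGACNNNGC, on both strands. RefSeq promoters (GRCh38.p14, 250 bases before to 50 after the start) were found for 32 of the 39 genes in 45 entries, and 10 of the 45 entries (22.2%), from 9 genes, held the core, against 13.3% of all 35116 promoter entries. No entry was found for SOD1, PRDX1, GSS, PRDX6, GSR, MGST2 and TXN2. Of the 9 genes, GCLM, TXNRD1, KEAP1, GSTA4 and MGST1 fell, GPX2 rose, and GSTP1, GSTO1 and PGD did not pass the test. A match of letters is a description and does not show that a factor binds. The promoters of 5 of these genes are printed to show the element in genes that fell, rose or did not pass, 5′ to 3′ on the gene's strand with the matches in capitals.

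GCLM (chr1:93909381-93909680, minus strand): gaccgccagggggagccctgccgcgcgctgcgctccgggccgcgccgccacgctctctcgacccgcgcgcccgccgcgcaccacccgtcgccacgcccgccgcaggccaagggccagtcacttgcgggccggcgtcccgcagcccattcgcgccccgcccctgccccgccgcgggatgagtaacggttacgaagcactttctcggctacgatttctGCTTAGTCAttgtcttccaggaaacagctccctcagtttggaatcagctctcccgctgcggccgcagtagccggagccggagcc

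TXNRD1 (chr12:104215529-104215828, plus strand): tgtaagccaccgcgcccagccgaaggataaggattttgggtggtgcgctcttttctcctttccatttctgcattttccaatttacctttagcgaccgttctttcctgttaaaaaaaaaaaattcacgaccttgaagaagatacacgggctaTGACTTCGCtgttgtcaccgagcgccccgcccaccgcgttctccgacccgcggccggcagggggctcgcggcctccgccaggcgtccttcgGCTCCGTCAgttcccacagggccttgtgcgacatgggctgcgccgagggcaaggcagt

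KEAP1 (chr19:10502722-10503021, minus strand): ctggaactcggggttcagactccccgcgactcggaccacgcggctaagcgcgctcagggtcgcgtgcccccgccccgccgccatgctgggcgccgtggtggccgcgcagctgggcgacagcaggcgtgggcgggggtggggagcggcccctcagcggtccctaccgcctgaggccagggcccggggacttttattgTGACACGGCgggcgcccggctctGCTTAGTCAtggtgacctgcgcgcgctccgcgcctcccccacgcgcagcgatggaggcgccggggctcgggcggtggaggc

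GPX2 (chr14:64942696-64942995, minus strand): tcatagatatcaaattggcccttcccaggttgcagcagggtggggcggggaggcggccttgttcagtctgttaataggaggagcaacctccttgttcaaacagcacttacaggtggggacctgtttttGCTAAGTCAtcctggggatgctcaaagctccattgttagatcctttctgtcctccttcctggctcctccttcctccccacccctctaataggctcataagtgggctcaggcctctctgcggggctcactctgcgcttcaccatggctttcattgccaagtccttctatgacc

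GSTP1 (chr11:67583562-67583861, plus strand): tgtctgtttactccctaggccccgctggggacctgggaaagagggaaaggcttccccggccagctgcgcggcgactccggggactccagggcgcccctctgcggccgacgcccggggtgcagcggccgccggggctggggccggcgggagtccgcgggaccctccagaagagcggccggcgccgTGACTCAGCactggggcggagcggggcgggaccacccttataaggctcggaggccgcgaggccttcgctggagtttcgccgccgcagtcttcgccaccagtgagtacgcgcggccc

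In GCLM the match began 34 bases before the start and read GCTTAGTCA, the element on the other strand. The same 9 letters stood 31 bases before the start of KEAP1, which also had TGACACGGC 54 bases before it. GPX2 had GCTAAGTCA 122 bases before its start, and GSTP1 had TGACTCAGC 66 bases before. Of the 2 TXNRD1 entries, the printed one held TGACTTCGC 99 bases and GCTCCGTCA 8 bases before the start. The other entry (chr12:104286782-104287081), not printed, held GCTTTGTCA 102 bases before its start. The printed promoters with the core are those of GCLM, TXNRD1 and KEAP1, which fell, GPX2, which rose, and GSTP1, whose groups overlapped. The part of the element in these results was not tested.

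The enzymes that make and recharge glutathione were lower in 3 of 4 cases. GCLC and GCLM are the catalytic and modifier subunits of glutamate-cysteine ligase, the rate-limiting enzyme of glutathione synthesis. GCLM (chromosome 1, 94350761 to 94374967) had 46.8, 48.2 and 44.9 RPM in the control and 39.1, 36.7 and 35.9 RPM in the knockdown, a difference of -0.33 on the log2 scale (SE 0.0815, adjusted p = 0.00231). GCLC had 26.8, 27.6 and 24.9 RPM in the control and 21.1, 21.2 and 23.2 RPM in the knockdown, a difference of -0.28 on the log2 scale (SE 0.0913, adjusted p = 0.0169). For both subunits the groups did not overlap, and the knockdown means were 79.8% and 82.5% of control. The call of GCLC was lost without knockdown replicate 4 or 5 or without control replicate 4 or 5, at adjusted p = 0.0580 to 0.0748. GSR, the reductase that returns oxidised glutathione to its reduced form with NADPH, had 50.4, 54.2 and 45.9 RPM in the control and 43.8, 38.7 and 37.8 RPM in the knockdown. The groups did not overlap, with a difference of -0.32 on the log2 scale (SE 0.0871, adjusted p = 0.00423). GSS, which joins glycine in the last step of synthesis, had 99.0, 106 and 90.7 RPM in the control and 98.4, 92.0 and 104 RPM in the knockdown. Its groups overlapped, and its log2 fold change of -0.0013 had a 95% interval of -0.16 to 0.16.

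**Figure D3:**
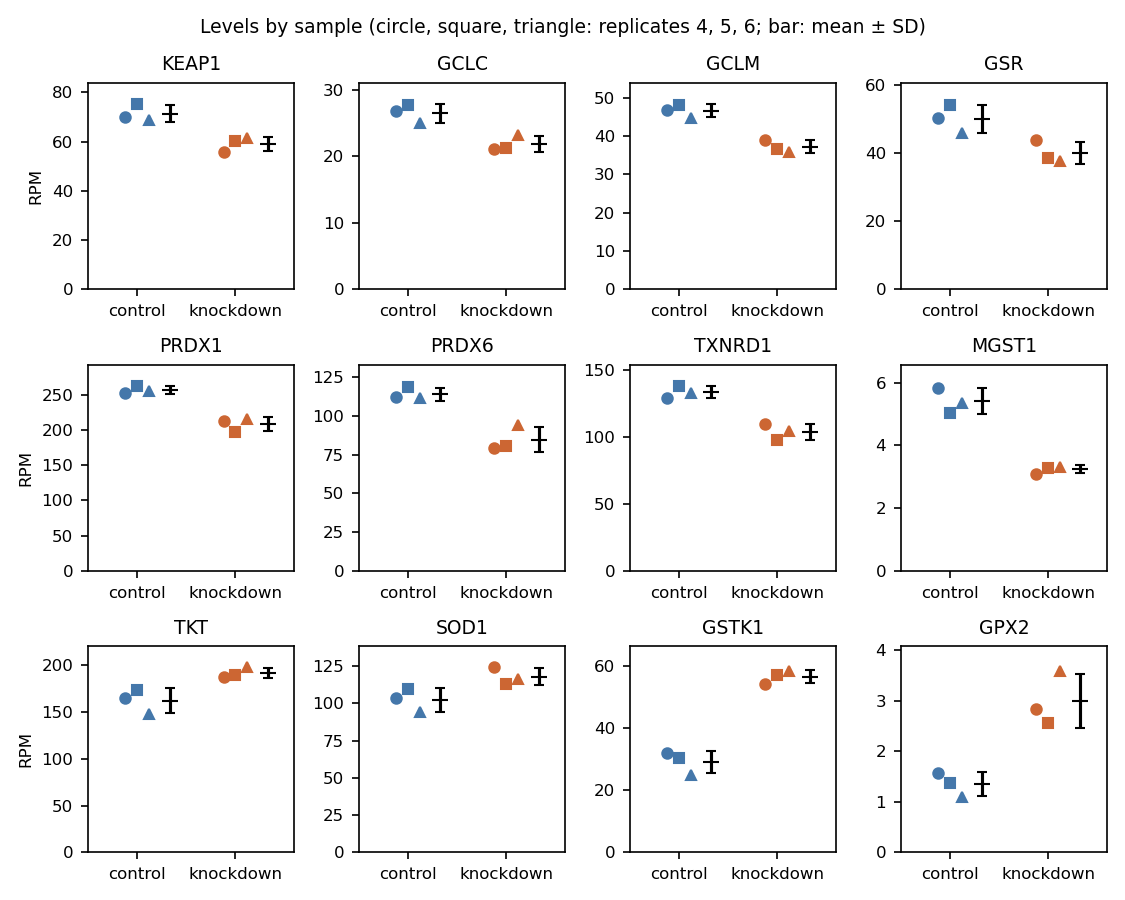
Level in RPM (vertical axis, from 0) of 12 genes in the 3 control and 3 knockdown samples, one panel per gene; circles, squares and triangles are replicates 4, 5 and 6, and the black bar is the mean with the SD of the 3 samples. The 8 genes from KEAP1 to MGST1 are lower and TKT, SOD1, GSTK1 and GPX2 higher in all 3 knockdown samples than in any control sample.

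Around the synthesis of glutathione, transport and breakdown genes changed in both directions. Of 14 tested genes of cystine uptake and glutathione turnover, 5 rose (35.7%) and 4 fell (28.6%), against 22.6% and 19.2% of all genes tested. Their median was 0.034. SLC7A11, the cystine carrier and a much-used NRF2 target, did not pass, with a difference of 0.011 on the log2 scale (SE 0.117, adjusted p = 0.949), while SLC3A2, its heavy chain shared with other carriers, fell by 0.26. The gamma-glutamyl transferases, which cleave glutathione outside the cell, parted: GGT5 had 10.04, 10.2 and 6.12 RPM in the control and 1.38, 1.08 and 1.38 RPM in the knockdown, whereas GGT7, a relative with little known activity, had 1.504, 1.85 and 1.57 RPM in the control and 4.94, 5.21 and 4.36 RPM in the knockdown. Neither pair of groups overlapped, and the log2 fold changes were -2.75 and 1.56. GGT1 and the dipeptidase DPEP1 rose from low levels of 0.425 ± 0.170 to 1.103 ± 0.298 RPM and 0.302 ± 0.115 to 1.20 ± 0.386 RPM. OPLAH, the oxoprolinase that recycles glutamate from glutathione breakdown, rose by 0.92. CBS, at the entry of the route from homocysteine to cysteine, rose by 0.60, and CTH, the next enzyme of that route, fell by 0.76. LAP3, a leucine aminopeptidase that also cleaves the dipeptide left from glutathione, fell by 0.38. Near CBS, 41 of 72 genes within 5 Mb also rose.

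Glutathione peroxidases did not move together. GPX2, the selenium-dependent peroxidase of gut epithelium, had 1.57, 1.38 and 1.105 RPM in the control and 2.85, 2.55 and 3.59 RPM in the knockdown. Every knockdown sample lay above every control sample, at 222% of the control mean, a difference of 1.15 on the log2 scale (SE 0.226, adjusted p = 0.000227). The level was low, about 26 to 94 reads per sample, and the gene overlaps CHURC1 and FNTB on the other strand. The sources used here do not say whether reads were counted by strand; CHURC1 and FNTB had log2 fold changes of 0.030 and 0.027 (adjusted p = 0.820 and 0.874). None of the 60 tested genes within 5 Mb had a larger log2 fold change than GPX2, and 22 of them fell and 5 rose. GPX8, a peroxidase of the endoplasmic reticulum with cysteine in place of selenocysteine, had 22.2, 22.6 and 19.5 RPM in the control and 17.0, 15.8 and 16.3 RPM in the knockdown, without overlap, a difference of -0.39 on the log2 scale (SE 0.0974, adjusted p = 0.00251).

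GPX1 and GPX4 did not pass the test. GPX1, the main cytosolic enzyme, had 186, 183 and 178 RPM in the control and 203, 188 and 186 RPM in the knockdown. Knockdown replicates 4 and 5 lay above all controls and replicate 6 just below the highest, with a difference of 0.076 on the log2 scale (SE 0.0724, adjusted p = 0.417) and a 95% interval of -0.073 to 0.23. GPX1 passed with quantile normalization (0.14, adjusted p = 0.0453). GPX4, which reduces lipid peroxides in membranes and guards against ferroptosis, had 135.8, 139.9 and 120.1 RPM in the control and 130.1, 128 and 135.8 RPM in the knockdown. Here the control samples spanned the knockdown samples, and the log2 fold change was -0.0031 with a 95% interval of -0.16 to 0.15. GPX3, the secreted enzyme, differed by -0.14 on the log2 scale (adjusted p = 0.335).

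Peroxiredoxins were lower for 4 of 6 members, by similar amounts. PRDX6, the 1-cysteine member that also reduces phospholipid peroxides, fell most of the 6 (chromosome 1, 173446405 to 173457947). It had 112, 119 and 111 RPM in the control and 79.2, 80.6 and 93.8 RPM in the knockdown, a difference of -0.43 on the log2 scale (SE 0.0794, adjusted p = 0.000102). PRDX1, the cytosolic member and a classic NRF2 target, had 253, 263 and 255 RPM in the control and 213, 196 and 215 RPM in the knockdown, a difference of -0.30 on the log2 scale (SE 0.0724, adjusted p = 0.00153). PRDX3, the mitochondrial member that takes electrons from TXN2, had 92.1, 91.5 and 84.7 RPM in the control and 74.3, 70.0 and 73.2 RPM in the knockdown, a difference of -0.30 on the log2 scale (SE 0.0756, adjusted p = 0.00227). In these 3 genes all knockdown samples lay below all control samples, at 74.2%, 81.1% and 81.0% of the control mean. PRDX4, the member of the endoplasmic reticulum, fell by 0.26 on the log2 scale (adjusted p = 0.0121, and 0.0620 without knockdown replicate 6). PRDX1 overlaps MMACHC on the other strand, which also fell, by 0.52, from 8.49 RPM. PRDX2 and PRDX5 did not pass, with log2 fold changes of 0.11 (95% interval -0.044 to 0.27) and -0.032 (-0.24 to 0.18). PRDX2 passed as higher with nuclear gene totals (0.17, adjusted p = 0.0106) and with quantile normalization (0.20, adjusted p = 0.00283).

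In the thioredoxin system the fall was seen in a reductase and in the mitochondrial thioredoxin. TXNRD1, the selenoprotein that reduces cytosolic thioredoxin (chromosome 12, 104609557 to 104744062), had 129, 138 and 133 RPM in the control and 109.5, 97.3 and 104 RPM in the knockdown. The groups did not overlap, and the knockdown mean was 77.9% of control, a difference of -0.36 on the log2 scale (SE 0.0749, adjusted p = 0.000386). Within the same stretch and on the same strand the table lists RPL18AP3, a pseudogene of an abundant ribosomal protein gene, at 340.5 RPM with a log2 fold change of -0.13 (adjusted p = 0.149), and EID3, at 0.801 RPM, which fell by 0.95 (adjusted p = 0.0431). TXN2, the mitochondrial thioredoxin, fell by 0.27 (adjusted p = 0.0114), at 82.7% of control, a call that narrowly missed the threshold without knockdown replicate 5 (adjusted p = 0.0510). Its own reductase TXNRD2 differed by 0.10 on the log2 scale (adjusted p = 0.489). SRXN1, sulfiredoxin, which rescues overoxidised peroxiredoxins, had 64.5, 66.9 and 65.3 RPM in the control and 58.5, 55.5 and 62.7 RPM in the knockdown. Its groups did not overlap, yet a difference of -0.16 on the log2 scale (SE 0.0781, adjusted p = 0.111) missed the threshold.

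Cytosolic thioredoxin TXN had 197, 203 and 197 RPM in the control and 276, 196 and 187 RPM in the knockdown. Knockdown replicate 4, the library with the HBB reads, stood far above the other 5 samples, and the other knockdown samples lay below all controls. Its log2 fold change was 0.12 (adjusted p = 0.345) with all samples and -0.055 (adjusted p = 0.643) without that replicate, so its direction rests on 1 library.

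Beside thioredoxin, glutaredoxins and methionine sulfoxide reductases repair oxidised protein. Of 12 tested glutaredoxins, methionine sulfoxide reductases and thioredoxin relatives, 6 fell (50%) and 2 rose (16.7%), against 19.2% and 22.6% of all genes tested. Their median log2 fold change was -0.21. NXN, nucleoredoxin, fell from 140.1 ± 9.004 to 84.6 ± 5.997 RPM, a difference of -0.73 on the log2 scale (SE 0.0783, adjusted p = 6.76e-08). GLRX, the cytosolic glutaredoxin, fell from 41.3 ± 1.95 to 30.5 ± 0.696 RPM, and the iron-sulfur glutaredoxin GLRX3 from 56.999 ± 2.54 to 43.1 ± 1.38 RPM, with log2 fold changes of -0.44 and -0.40. GLRX2, MSRB1 and TXNL1 fell by 0.37, 0.23 and 0.22. TXNRD3, a reductase that handles both thioredoxin and glutathione, and the mitochondrial MSRB2 rose by 0.37 and 0.36.

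Quinone reductase, superoxide dismutases and catalase showed small differences. NQO1, the quinone reductase used as a readout of NRF2 activity, had 145, 143 and 125 RPM in the control and 122, 118 and 122 RPM in the knockdown. All knockdown samples lay below all controls, though close to control replicate 6, and a difference of -0.18 on the log2 scale (SE 0.0764, adjusted p = 0.0588) missed the threshold. NQO1 passed without control replicate 6 (-0.25, adjusted p = 0.00364), with median of ratios scaling (-0.19, adjusted p = 0.00473) and with nuclear gene totals (-0.13, adjusted p = 0.0399). It did not pass in the other 12 alternatives, among them quantile normalization (-0.086, adjusted p = 0.150) and leaving out control replicate 4 (-0.14, adjusted p = 0.249). SOD1, the cytosolic superoxide dismutase, had 103, 109.5 and 93.8 RPM in the control and 124.3, 113 and 116 RPM in the knockdown, without overlap, a difference of 0.21 on the log2 scale (SE 0.0779, adjusted p = 0.0338). Near SOD1, 28 of 49 genes within 5 Mb rose and 2 fell. Their median of 0.28 was above the value of SOD1. Its call was lost without any 1 of the knockdown replicates, control replicate 4 or control replicate 6, at adjusted p = 0.0517 to 0.144. SOD2, the mitochondrial enzyme, and CAT, the catalase of peroxisomes, had log2 fold changes of -0.029 (95% interval -0.20 to 0.14) and 0.080 (-0.12 to 0.27).

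The pentose phosphate pathway, which supplies NADPH to both reductases, changed at TKT only among its 3 members. Transketolase TKT had 165, 173 and 147.9 RPM in the control and 187, 189.7 and 198 RPM in the knockdown, without overlap, a difference of 0.24 on the log2 scale (SE 0.0759, adjusted p = 0.0117). Of its neighbours within 5 Mb, 90 of 138 rose, with a median log2 fold change of 0.36, above that of TKT. PGD, which yields NADPH, and transaldolase TALDO1 had log2 fold changes of -0.10 (95% interval -0.27 to 0.068) and -0.044 (-0.20 to 0.11), with overlapping groups. Of 16 other genes of NADPH supply, 2 rose (12.5%) and 3 fell (18.75%), against 22.6% and 19.2% of all genes tested. RPIA and MTHFD2 rose by 0.48 and 0.21, where 36 of 46 and 58 of 74 neighbours rose. MTHFD1, RPE and the mitochondrial NAD kinase NADK2 fell by 0.40, 0.28 and 0.47.

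Glutathione transferases changed in both directions. GSTK1, the kappa-class transferase of mitochondria and peroxisomes, rose most clearly of the 38 (chromosome 7, 142941186 to 142967948). It had 31.9, 30.4 and 25.0 RPM in the control and 54.2, 57.1 and 58.4 RPM in the knockdown, so that every knockdown sample was above every control sample, at 194% of the control mean, a difference of 0.97 on the log2 scale (SE 0.0912, adjusted p = 8.15e-09). Of its 47 tested neighbours within 5 Mb, 33 rose, with a median log2 fold change of 0.47, and 8 had a larger one than GSTK1. MGST1, the membrane transferase of endoplasmic reticulum and mitochondrial outer membrane that also reduces lipid peroxides, fell by the largest amount of the 38. It had 5.84, 5.03 and 5.35 RPM in the control and 3.09, 3.29 and 3.33 RPM in the knockdown, 59.8% of control, on about 65 to 167 reads per sample, a difference of -0.74 on the log2 scale (SE 0.154, adjusted p = 0.000421). All 37 tested neighbours had a higher log2 fold change. MGST1 overlaps RP11-473N11.2 on the other strand, which has a similar level (7.38 RPM) and fell by 0.35 (adjusted p = 0.0321).

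GSTA4, the alpha-class enzyme specialised in 4-hydroxynonenal, a lipid aldehyde, had 2.06, 2.32 and 2.34 RPM in the control and 1.57, 1.33 and 1.61 RPM in the knockdown. The groups did not overlap, with a difference of -0.58 on the log2 scale (SE 0.223, adjusted p = 0.0379), but the gene had only about 27 to 59 reads per sample and lost its call when any 1 replicate was left out (adjusted p = 0.0506 to 0.127). GSTM2 had 1.05, 1.19 and 0.852 RPM in the control and 1.21, 2.73 and 1.90 RPM in the knockdown, a difference of 0.85 on the log2 scale (SE 0.292, adjusted p = 0.0211). Knockdown replicate 4 was just above the highest control, and without knockdown replicate 5 the adjusted p was 0.194 and the log2 fold change 0.57. GSTM genes are close copies of each other and may share reads, so the values of GSTM2 and GSTM4 are uncertain.

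The remaining transferases did not pass the test. GSTP1, the pi-class enzyme that is abundant in many tumours, had 261, 264 and 238 RPM in the control and 256, 257 and 268 RPM in the knockdown. Its groups overlapped, and its log2 fold change of 0.034 had a 95% interval of -0.12 to 0.18. GSTO1, an omega-class enzyme with thiol transferase activity, differed by -0.090 on the log2 scale (adjusted p = 0.389), and GSTM4 by 0.19 (adjusted p = 0.191). MGST2, which makes leukotriene C4, and MGST3 differed by 0.22 and 0.13 (adjusted p = 0.112 and 0.251). MGST3 had 32.8, 32.5 and 28.7 RPM in the control and 34.1, 34.7 and 33.6 RPM in the knockdown, without overlap. Of 11 other tested transferases, glyoxalases and relatives, 2 rose (18.2%) and 0 fell, against 22.6% and 19.2% of all genes tested. GSTO2, which reduces dehydroascorbate, rose from 3.53 ± 0.944 to 6.31 ± 0.230 RPM. PTGES, the microsomal prostaglandin E synthase of the same family as MGST1, rose from 2.64 ± 0.581 to 5.79 ± 0.677 RPM.

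**Figure D4:**
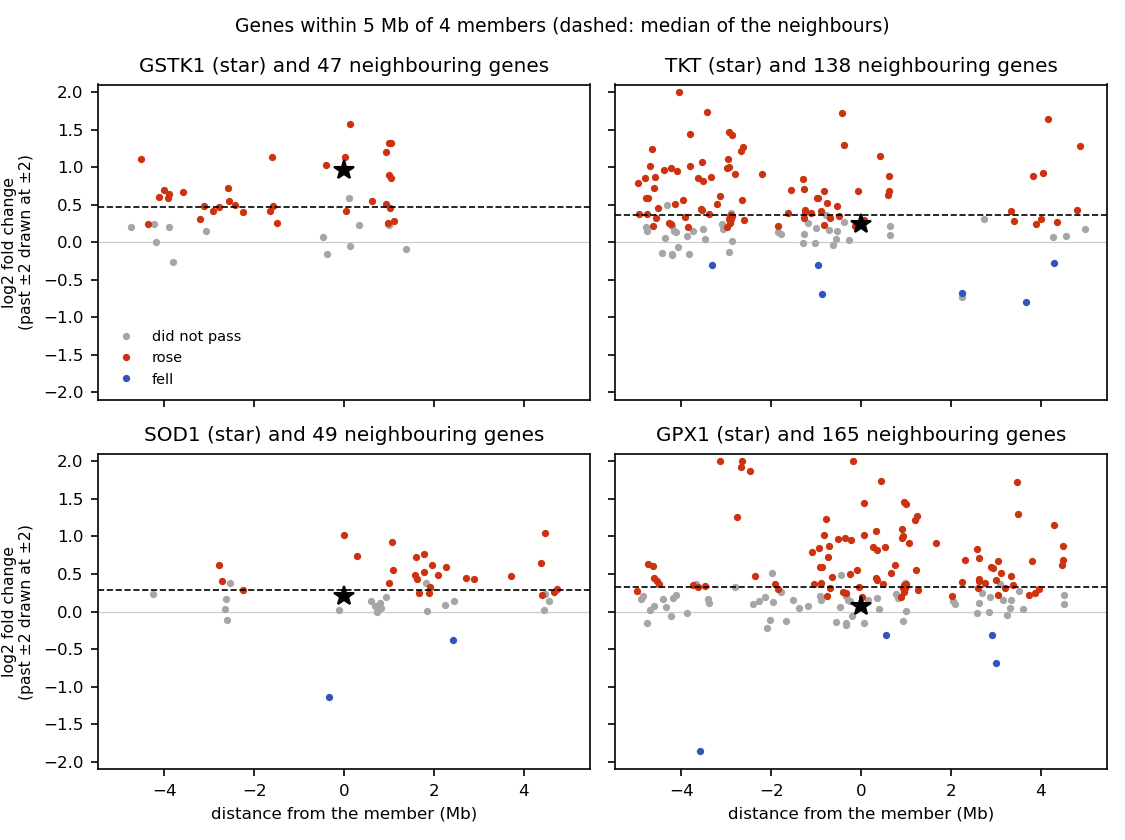
Log2 fold change (vertical axis, values past 2 or -2 drawn at that limit) of all tested genes within 5 Mb of GSTK1, TKT, SOD1 and GPX1, by distance from the gene in Mb (horizontal axis); the star is the gene itself, red points rose, blue points fell, grey points did not pass, and the dashed line is the neighbours' median. Neighbours are mostly above 0 in all 4 panels (medians 0.47, 0.36, 0.28 and 0.33), GSTK1 is above its neighbours' median, and TKT, SOD1 and GPX1 are below theirs. The stretches of TKT and GPX1, on the same chromosome, share many genes.

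For 4 of the 38 genes, most genes nearby also rose. More than 50% of the tested genes within 5 Mb rose for GSTK1, TKT, SOD1 and GPX1, against 6.25% to 30.8% for the other 34 genes. Of these 4, GSTK1, TKT and SOD1 are 3 of the 5 that rose, and the part of position in their results was not tested. GPX1 lay among 98 of 165 neighbours that rose, with a median log2 fold change of 0.33, and 138 of the 165 had a larger log2 fold change than GPX1. TKT lies 3.88 Mb from GPX1 on the same chromosome, so their stretches share many genes and are not separate cases. The rises of GPX2 and GSTM2 came from stretches with medians of -0.15 and 0.017. For the 13 genes that fell, the medians of the neighbours were between -0.13 and 0.054.

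Set by textbook function, NRF2 targets, selenoproteins and mitochondrial genes among the 38 each held rises and falls. These groupings were drawn up after the values were seen. Of 12 established NRF2 targets among them, 5 fell (GCLC, GCLM, GSR, PRDX1, TXNRD1) and 2 rose (GPX2, TKT). The other 5 did not pass (TXN, SRXN1, NQO1, PGD, TALDO1), and the median of the 12 was -0.17. So 41.7% fell and 16.7% rose, against 19.2% and 22.6% of all genes tested. Since the 12 were chosen with the values known, this split may partly reflect the choice. Of the 6 selenoproteins, TXNRD1 fell, GPX2 rose and GPX1, GPX3, GPX4 and TXNRD2 did not pass. Of 5 members listed as mitochondrial, PRDX3 and TXN2 fell and GSTK1 rose, while TXNRD2 and SOD2 did not pass. That list left out MGST1, which lies partly in the mitochondrial outer membrane and fell. Other members with a part in mitochondria may be missing from it. Both members of the endoplasmic reticulum lumen, GPX8 and PRDX4, fell.

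Of 21 other tested NRF2 targets, 5 rose (23.8%) and 3 fell (14.3%), against 22.6% and 19.2% of all genes tested. Their median log2 fold change was 0.011. The list does not separate genes by the direction in which NRF2 acts on them, so these counts are no measure of NRF2 activity. FTL, the ferritin light chain, had 956, 976 and 918 RPM in the control and 668, 623 and 672 RPM in the knockdown, a difference of -0.54 on the log2 scale (SE 0.0761, adjusted p = 3.99e-06). HMOX1, which breaks down heme and is among the most inducible NRF2 targets, fell from 5.04 ± 0.774 to 3.56 ± 0.375 RPM, by 0.49 (adjusted p = 0.0166), and the lipase ABHD4 fell by 0.36. ABCC3, an exporter of glutathione and glucuronide conjugates, had 39.5, 36.0 and 30.0 RPM in the control and 67.8, 76.3 and 80.3 RPM in the knockdown, without overlap, a difference of 1.09 on the log2 scale (SE 0.0945, adjusted p = 1.65e-09). SLC48A1, a heme transporter, TXNIP, the inhibitor of thioredoxin, and the carbonyl reductase CBR1 rose by 0.34, 0.37 and 0.23. AKR1C2 rose by 0.73, but it is nearly identical to other AKR1C genes and may share reads. Near CBR1, 36 of 57 neighbours rose. Over all 110 other tested genes of the pathway, 24 rose (21.8%) and 25 fell (22.7%), with a median of 0.041. These shares are near those of all genes tested, 22.6% and 19.2%.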

How the data were processed

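The authors deposited 1 table with a column per sample. Its values are log2 of RPM plus an offset of 1e-04, read from the values, since every column has its floor there. The submitters' processing notes name Partek, Bowtie and hg38, without versions. The largest end on chromosome 1 is 249214146, and the table's positions do not match GRCh38: GCLM lies at 94350761 to 94374967 in the table, and its RefSeq promoter at 93909381 to 93909680. The sources used here do not name the build of the positions, the gene models, the counting or the filters. Symbols listed at several loci (1192) had identical values there and were used once.

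After the log was undone, 77.3% to 78.6% of low values lay within 0.02 reads of whole multiples of 1 step, which gave the depths. Because the rest did not, count models were not run. Genes were kept at a mean of 0.688 RPM or more (1 read per 1000000 reads of the listed genes) and tested with limma 3.58.1 in R 4.3.3 (lmFit, eBayes with trend, no covariates, two-sided, 3 against 3 samples, Benjamini-Hochberg over 15496 genes). The model was tested on simulated data. Alternatives were 3 other scalings, a pseudocount of 1 RPM, no filter or a stricter filter, no variance trend, a robust prior, a replicate block and leaving out each replicate. Fold changes are on the scale of the deposited log2 values, with limma's SE, and intervals cover 95%. Neighbours are tested genes whose middle lies within 5 Mb. Figures used matplotlib 3.10.9.

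The sources used here do not say that same-numbered samples share a culture or day, so replicate numbers were not taken as pairs. Their deviations from the group means had correlations of -0.049, -0.065 and -0.13 over all genes tested. With few samples and many genes at low levels, these values cannot exclude a shared culture or day. The members and lists were chosen with earlier results of these data known. Values by sample are given for NFE2L2, KEAP1, members past the threshold with a log2 fold change of at least 0.3 in size, and the highest and most significant member of each role; other pathway genes are the most significant of their list or 1 of a count of at most 5. SLC7A11, GLRX2, MSRB1, TXNL1 and overlapping genes were named outside that rule, after their values were seen, as were values by sample for GCLC, GPX4 and SRXN1.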

Additional observations from a re-analysis of the deposited data

How the results depend on the processing

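Under the 15 alternatives the number of members that fell stayed at 10 to 15 against 13, and 11 of the 18 changed members kept their direction and call wherever they were tested (KEAP1, GCLM, GSR, GPX8, PRDX1, PRDX3, PRDX6, TXNRD1 and MGST1 lower, GPX2 and GSTK1 higher; GPX2 was not tested under the stricter filter). The number that rose, 5, was 9 with nuclear gene totals, 3 with no filter, 3 with the stricter filter (mean of at least 3.44 RPM), 2 without a variance trend and 3 with the replicate block, where 11 fell; leaving out 1 replicate gave 3 to 5, with 3 without knockdown replicate 5 or control replicate 6. Why these numbers moved was not tested, except that GPX2 and GSTM2 were not tested under the stricter filter. The other 7 (GCLC, PRDX4, TXN2, GSTA4, SOD1, TKT and GSTM2) lost the call in at least 1 alternative; GCLC, GSTA4, SOD1 and TKT did so with the replicate block. Of the 20 members not past the threshold, GPX1, PRDX2, SRXN1, NQO1, GSTM4, MGST2 and MGST3 passed under at least 1 other scaling. Members that never passed changed sign with nuclear gene totals (GSS 0.051, GPX4 0.049, PRDX5 0.020, SOD2 0.023, TALDO1 0.0088), with quantile normalization (GSS 0.066, GPX4 0.10, SOD2 0.021, TALDO1 0.064), and when a replicate was left out (GSS -0.059 to 0.051, GPX4 -0.070 to 0.041, PRDX5 -0.15 to 0.083, SOD2 -0.083 to 0.015, TXN -0.055 to 0.22, GSTP1 -0.013 to 0.062). The depth limits GPX2, GSTA4 and GSTM2, which had 20 to 94 reads in a sample.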

Other observations

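Selenium handling and ferroptosis genes border on the peroxidases described above. For comparison, 22.6% of all genes tested rose and 19.2% fell. Of 9 tested genes of selenoprotein synthesis, the 2 that passed both fell: SEPHS2, the selenophosphate synthetase, from 50.5 ± 3.85 to 36.8 ± 1.70 RPM and its relative SEPHS1 from 57.6 ± 2.53 to 45.5 ± 2.23 RPM (SD, n = 3 each), with log2 fold changes of -0.46 and -0.34. Of 11 other tested selenoproteins, SEPN1 and EPT1 rose by 0.39 and 0.34, and SELT and SEP15 fell by 0.25 and 0.21. Near EPT1, 60 of 77 genes within 5 Mb rose. Near SELT, 15 of 23 fell and 1 rose, with a median log2 fold change of -0.39, below that of SELT. The part of position in these results was not tested.

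Of 7 tested ferroptosis genes, TFRC, the transferrin receptor, had 353, 377 and 354 RPM in the control and 248, 242 and 243 RPM in the knockdown, a difference of -0.56 on the log2 scale (SE 0.0715, adjusted p = 8.80e-07) by limma, without overlap between groups. ACSL4, which loads polyunsaturated fatty acids into lipids, fell by 0.28, while LPCAT3, which acts in the same route, and the reductase POR rose by 0.27 and 0.27. Near POR, 34 of 74 genes within 5 Mb rose, with a median log2 fold change of 0.28. Near LPCAT3, 28 of 110 rose, with a median of -0.016. Of the genes that produce superoxide or peroxide or load copper into SOD1, CYBA, CCS and XDH were tested, with log2 fold changes of 0.060, 0.14 and -0.26 (adjusted p = 0.559, 0.293 and 0.581). PRDX2, which did not pass, overlaps HOOK2 on the same strand, and HOOK2 rose by 0.55 from 29.1 RPM.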
